A study of Mus musculus with 6 samples.

Results

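The genes described are 36 transcripts of the cell division cycle, 16 that serve DNA replication in S phase and 20 that serve mitosis. They were found by gene symbol, or by an older alias of it, among the probes of all 6 raw data sets. A probe with a single symbol was found for 34 of the 36, with 41 probes in all. Pcna, the sliding clamp of DNA polymerases, and Cdc20, an activator of the anaphase-promoting complex, had no such probe in the files and were not analysed here. Of the 19695 genes with a probe of 1 symbol, 12196 were above background in at least 1 sample and were tested. Among them were 25 of the 36, 13 of the S phase class and 12 of the mitotic class.

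C57BL/6J mice gave the RNA, which came from the ileum, the end of the small intestine. Germ-free (GF) mice lived in isolators without microbes, specific pathogen free (SPF) mice had a conventional microbiota, and the gnotobiotic mouse is called humanized in the labels. The 6 samples were GF preweaned 1 and GF preweaned 2, SPF preweaned, humanized preweaned, GF postweaned and SPF postweaned, so that 4 of the 5 groups held 1 sample. The labels name no transgene or drug, and the make-up of the humanized microbiota was not stated in the labels. An age of 3 weeks is stated only for the gnotobiotic mouse and for GF mice used beside it. Whether a sample was 1 mouse or a pool of mice was not stated either.

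The intestinal epithelium is renewed from dividing cells at the base of the crypts, and transcripts of the cell cycle in this tissue are known mainly from those crypt cells. Before S phase the MCM helicase is loaded onto replication origins with the help of Cdc6 and Cdt1, E2F transcription factors switch on the genes for replication and nucleotide supply, and cyclin E drives entry. In G2 and mitosis another wave follows, cyclins A and B with Cdk1, the Aurora and Polo kinases, the kinetochore and the spindle, of which many genes are held down in resting cells by the DREAM complex. Activated lymphocytes and fibroblasts divide with the same machinery. The RNA was of whole tissue, so fewer dividing cells and less RNA per cell cannot be told apart.

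Each sample was read on 3 arrays with 1 colour, except GF preweaned 1, which had 6 arrays in 2 column sets of 3. The share of probes detected per array ran from 29.8% to 50.3%. GF preweaned 2 had the fewest genes above background (7465) and SPF postweaned the most (11109), and the lowest detected level on an array lay between 7.91 and 8.01 in the former and between 6.68 and 6.88 in the latter. A low member could therefore be detected in SPF postweaned and missed in GF preweaned 2. Levels are log2 of the quantile-normalized intensity plus 50, which understates the difference of dim genes, and their SD is that between arrays of a sample, within column sets for GF preweaned 1. The column sets differed by 2-fold or more for 1 of the 25 members, Mcm2 (7.89 and 8.94), and for 356 of all genes. All 12 tested epithelial markers were above background in every sample, but their level was not even: the median deviation from the gene mean ran from -0.81 in GF preweaned 1 to 0.49 in SPF postweaned ileum. In the column headings array numbers start again for GF preweaned 2 and the humanized sample. Apart from the labelled groups, 391 genes lay 2-fold or more apart between the set of GF preweaned 1, GF preweaned 2 and the humanized sample and the set of the other 3 samples. None of the 25 members did (0 of 25), while 6 of 25 did not overlap between these sets, as did 4466 of all 12196 genes.

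The subunits of the MCM helicase, which unwinds DNA at the replication fork, did not share a single order across the samples. Mcm2 had levels of 8.42 and 9.53 in GF preweaned 1 and 2, 9.16 in the humanized, 7.72 in the SPF preweaned, 7.50 in the GF postweaned and 7.01 in the SPF postweaned sample (SD 0.03 to 0.33). The preweaned GF and humanized samples were the high ones, and the SPF postweaned sample had the lowest value. No GF postweaned array detected Mcm2, so the order of the postweaned samples is uncertain. Mcm6 lay at 10.10 and 9.14 in GF preweaned 1 and 2, 9.34 in the humanized, 8.74 in the SPF preweaned, 8.67 in the GF postweaned and 8.74 in the SPF postweaned sample (SD 0.07 to 0.43). Again the 3 preweaned GF and humanized samples were above the other 3 without overlap. Mcm4 was 9.19 and 8.45 in the GF preweaned pair, 9.04 in the humanized, 7.88 in the SPF preweaned, 8.22 in the GF postweaned and 9.41 in the SPF postweaned sample (SD 0.08 to 0.32). Here the SPF postweaned sample was the highest and the SPF preweaned sample the lowest. Mcm7 was 8.57 and 8.17 in GF preweaned 1 and 2, 8.75 in the humanized, 7.48 in the SPF preweaned, 7.59 in the GF postweaned and 8.24 in the SPF postweaned sample (SD 0.06 to 0.25). SPF preweaned and GF postweaned ileum were the lowest, below both GF preweaned samples.

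Mcm3 and Mcm5 were dimmer, and shared with Mcm7 the highest sample (humanized) and the 2 lowest (GF postweaned and SPF preweaned). Mcm3 had levels of 7.34 and 7.46 in the GF preweaned samples, 8.08 in the humanized, 6.38 in the SPF preweaned, 6.44 in the GF postweaned and 7.27 in the SPF postweaned sample, and was above background only in the humanized and SPF postweaned samples. Mcm5 had levels of 7.77 and 7.49 in the GF preweaned samples, 8.28 in the humanized, 6.61 in the SPF preweaned, 6.96 in the GF postweaned and 8.15 in the SPF postweaned sample. No array of GF preweaned 2, SPF preweaned or GF postweaned ileum detected Mcm5. Gins2, a subunit of the GINS complex that works with the MCM helicase, went another way. It was detected on 2 SPF preweaned arrays alone and was tested only through that sample. Its levels were 6.84 and 6.06 in the GF preweaned samples, 6.31 in the humanized, 7.29 in the SPF preweaned, 5.83 in the GF postweaned and 6.51 in the SPF postweaned sample.

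Rrm2, the regulated small subunit of ribonucleotide reductase that makes deoxyribonucleotides, had the widest range of the 25 members, 3.30 on the log2 scale. It lay at 7.40 and 8.58 in GF preweaned 1 and 2, 10.4 in the humanized, 7.10 in the SPF preweaned, 7.27 in the GF postweaned and 8.42 in the SPF postweaned sample (SD 0.05 to 0.30). The humanized sample was above all others, no SPF preweaned array detected the transcript, and the GF preweaned pair differed by 1.18. Rrm1, the large subunit of the same enzyme, had a narrow range (6.76 to 7.31) and was above background in 2 samples. Cdt1, a loader of the MCM helicase, was above background in all 6 samples within 0.55 (9.30 to 9.85). The remaining S phase members that were tested, Tk1 (thymidine kinase of the salvage pathway, 6.48 to 7.17), Ccne1 (6.83 to 7.66) and Ccne2 (6.998 to 7.40, both E cyclins), also spanned less than 2-fold. Tk1 was above background in SPF postweaned ileum alone. Cdc6 (5.65 to 5.82) and Tyms, thymidylate synthase (5.76 to 6.39), were not above background in any sample.

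Promoters of both classes are shown because the S phase and mitotic waves are known to rest on different promoter elements, E2F sites for the former and the cell cycle homology region (CHR) with CCAAT boxes for the latter. RefSeq promoters (GRCm38.p6, 250 bases before to 50 after a start) were found for 30 of the 36 members, 13 of the S phase and 17 of the mitotic class, with 31 promoters in all. Letters searched on both strands, a set chosen after the expression data had been seen, were TTTGAA and TTCGAA for the CHR, CCAAT for the CCAAT box, and TTTCCCGC, TTTGGCGC, TTTCGCGC and TTTGCCGC for E2F. Matches overlapped each other in 5 member promoters, in 2 of them between different motifs. An E2F motif was found in 6 of 14 S phase promoters (42.9%), 1 of 17 mitotic promoters (5.88%) and 2.26% of all 32851 promoters. The CHR was found in 2 of 14 S phase promoters (14.3%), 14 of 17 mitotic promoters (82.4%) and 19.2% of all promoters. A CCAAT box was found in 9 of 14, 16 of 17 and 37.4% (64.3% and 94.1% of the member promoters). A match is a run of letters and not a site shown to be bound, and the shares are descriptions without a test.

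**Figure D1:**
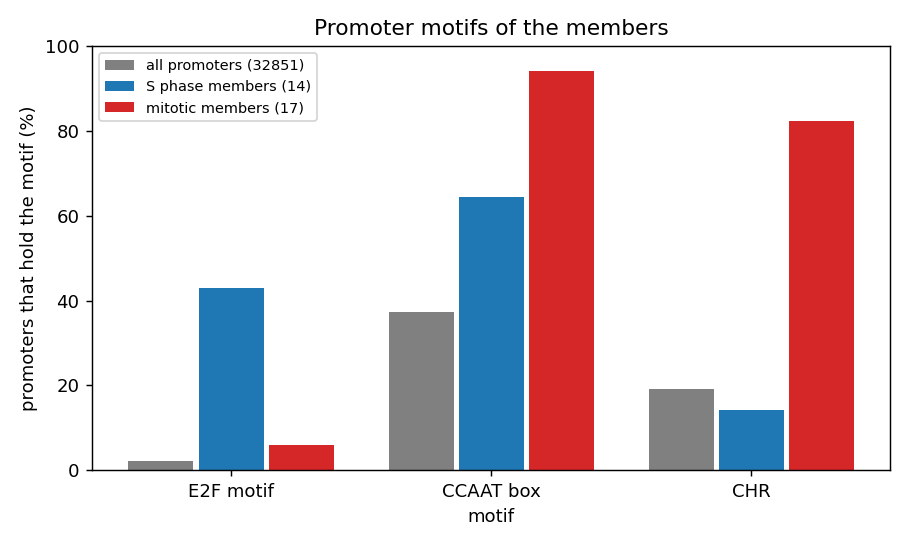
Share of promoters (%) that hold an E2F motif, a CCAAT box or a CHR, in all 32851 RefSeq promoters (grey), 14 promoters of S phase members (blue) and 17 of mitotic members (red). The E2F bar is highest for the S phase members (42.9%) and the CHR bar for the mitotic members (82.4%).

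The stretches printed run 5′ to 3′ from 250 bases before to 30 after the start, with motif letters on either strand in capitals. Mcm5, at chr8:75109259-75109538 (plus strand), and Mcm6, at chr1:128359676-128359955 (minus strand), are helicase subunits with E2F letters. Rrm2, at chr12:24708004-24708283 (plus strand), is the member with the widest range and holds a CCAAT box but none of the E2F letters.
Mcm5: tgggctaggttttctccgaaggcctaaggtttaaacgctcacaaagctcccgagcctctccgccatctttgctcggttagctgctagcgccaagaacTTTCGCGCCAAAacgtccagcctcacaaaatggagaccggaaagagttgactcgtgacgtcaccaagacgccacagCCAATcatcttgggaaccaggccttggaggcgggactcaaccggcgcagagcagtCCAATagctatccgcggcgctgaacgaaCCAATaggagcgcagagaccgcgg
Mcm6: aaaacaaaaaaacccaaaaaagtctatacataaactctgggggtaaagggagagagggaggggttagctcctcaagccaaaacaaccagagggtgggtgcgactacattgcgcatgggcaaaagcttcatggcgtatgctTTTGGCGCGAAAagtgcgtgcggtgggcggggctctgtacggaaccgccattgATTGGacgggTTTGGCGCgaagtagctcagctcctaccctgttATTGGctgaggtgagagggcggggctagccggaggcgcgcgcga
Rrm2: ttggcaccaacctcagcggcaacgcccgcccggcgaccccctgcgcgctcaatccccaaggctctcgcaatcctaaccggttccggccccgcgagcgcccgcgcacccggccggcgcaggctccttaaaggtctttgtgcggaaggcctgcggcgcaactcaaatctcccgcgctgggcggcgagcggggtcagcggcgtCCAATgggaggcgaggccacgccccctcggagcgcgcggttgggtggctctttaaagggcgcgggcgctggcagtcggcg

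Among the mitotic members, Top2a, the topoisomerase that untangles sister chromosomes, had levels of 8.59 and 7.62 in GF preweaned 1 and 2, 8.85 in the humanized, 6.54 in the SPF preweaned, 6.27 in the GF postweaned and 8.62 in the SPF postweaned sample (SD 0.03 to 0.31). Every array of GF preweaned 1, humanized and SPF postweaned ileum detected it, and no array of GF preweaned 2, SPF preweaned or GF postweaned ileum did. Cenpa, the histone H3 variant of centromeres, was above background everywhere, at 10.06 and 9.78 in the GF preweaned samples, 10.89 in the humanized, 8.74 in the SPF preweaned, 8.43 in the GF postweaned and 9.95 in the SPF postweaned sample (SD 0.04 to 0.16). Its GF preweaned pair lay 0.29 apart, while the humanized and the GF postweaned sample lay 2.46 apart. Mki67, which codes for the proliferation marker Ki-67 that coats mitotic chromosomes, had levels of 8.40 and 8.51 in the GF preweaned samples, 9.51 in the humanized, 7.59 in the SPF preweaned, 7.45 in the GF postweaned and 8.97 in the SPF postweaned sample (SD 0.08 to 0.18). Humanized and SPF postweaned ileum were the highest and SPF preweaned and GF postweaned ileum the lowest for both transcripts save that GF preweaned 1 exceeded SPF postweaned ileum for Cenpa. In GF postweaned ileum Mki67 was not above background, as 1 of 3 arrays detected it. A second Mki67 probe ran between 6.20 in GF postweaned and 8.02 in humanized ileum, and no SPF preweaned or GF postweaned array detected it.

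Ccna2, cyclin A2 of S phase and G2, was 8.46 and 8.59 in the GF preweaned samples, 9.40 in the humanized, 7.41 in the SPF preweaned, 7.46 in the GF postweaned and 8.12 in the SPF postweaned sample (SD 0.05 to 0.40). Its 2 lowest samples were again SPF preweaned and GF postweaned ileum. Cdca8, borealin of the chromosomal passenger complex, had levels of 7.95 and 7.29 in the GF preweaned samples, 7.66 in the humanized, 6.42 in the SPF preweaned, 6.69 in the GF postweaned and 7.33 in the SPF postweaned sample. GF preweaned 1 was the highest for this transcript, and neither of the 2 lowest samples had an array that detected it. Aurka, the Aurora kinase of centrosomes and spindle poles, had levels of 7.45 and 7.90 in the GF preweaned samples, 8.37 in the humanized, 6.81 in the SPF preweaned, 6.72 in the GF postweaned and 6.69 in the SPF postweaned sample. Unlike Top2a, it was not above background in SPF postweaned ileum, where 1 of 3 arrays detected it. Birc5, survivin of the chromosomal passenger complex, was above background in all samples, at 8.22 and 8.43 in the GF preweaned pair, 8.82 in the humanized, 7.71 in the SPF preweaned, 8.25 in the GF postweaned and 8.53 in the SPF postweaned sample. Its second tested probe disagreed on GF postweaned ileum, which lay at 6.89 there, near the 6.84 of SPF preweaned ileum and below the 8.14 and 8.30 of the GF preweaned pair.

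Ccnb1, cyclin B1, the partner of Cdk1 at entry into mitosis, ran against the other mitotic members. It lay at 7.26 and 6.95 in GF preweaned 1 and 2, 7.31 in the humanized, 8.98 in the SPF preweaned, 7.74 in the GF postweaned and 9.10 in the SPF postweaned sample (SD 0.04 to 0.51). Both SPF samples were high, and no GF or humanized sample overlapped them. An annotation version in the files gives this probe a further locus name beside Ccnb1, so its signal is uncertain as a measure of that gene alone. The other mitotic members spanned less than 2-fold: Plk1, the Polo kinase (7.64 to 8.57), Bub1b, of the spindle checkpoint (6.54 to 7.45), Ube2c, the ubiquitin-conjugating enzyme of the anaphase-promoting complex (7.24 to 7.99), and Aurkb, the Aurora kinase of the passenger complex (7.62 to 7.96). The kinase genes Cdk1, Bub1 and Ttk, the cyclin gene Ccnb2 and the kinesin genes Cenpe, Kif11 and Kif20a were not above background in any sample. Their probes stayed between 5.73 and 6.91.

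Promoters of Top2a, Cenpa, Mki67 and Ccnb1 are shown as examples. Whether motif letters go with the order of a transcript across the samples was not tested. Top2a (chr11:99024160-99024439 (minus strand)), Cenpa (chr5:30666636-30666915 (plus strand)) and Mki67 (chr7:135716350-135716629 (minus strand)) hold CHR letters. Ccnb1 (chr13:100786457-100786736 (minus strand)) holds CCAAT boxes and neither TTTGAA nor TTCGAA in this window. Other variants of the CHR were not searched, so a CHR in Ccnb1 is not excluded. Birc5, whose order across the samples was unlike that of Ccnb1, and Cenpe, which was not above background, were the other mitotic promoters without CHR letters.
Top2a: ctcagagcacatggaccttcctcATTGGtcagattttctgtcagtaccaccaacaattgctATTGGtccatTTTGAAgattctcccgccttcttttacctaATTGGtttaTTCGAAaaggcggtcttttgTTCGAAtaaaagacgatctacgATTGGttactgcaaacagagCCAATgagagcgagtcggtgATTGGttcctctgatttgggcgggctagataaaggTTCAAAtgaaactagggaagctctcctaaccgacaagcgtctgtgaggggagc
Cenpa: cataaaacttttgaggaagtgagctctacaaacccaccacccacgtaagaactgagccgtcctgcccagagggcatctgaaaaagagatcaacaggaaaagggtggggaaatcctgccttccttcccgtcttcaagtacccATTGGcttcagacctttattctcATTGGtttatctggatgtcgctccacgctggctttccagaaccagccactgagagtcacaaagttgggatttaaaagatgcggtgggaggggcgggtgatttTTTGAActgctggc
Mki67: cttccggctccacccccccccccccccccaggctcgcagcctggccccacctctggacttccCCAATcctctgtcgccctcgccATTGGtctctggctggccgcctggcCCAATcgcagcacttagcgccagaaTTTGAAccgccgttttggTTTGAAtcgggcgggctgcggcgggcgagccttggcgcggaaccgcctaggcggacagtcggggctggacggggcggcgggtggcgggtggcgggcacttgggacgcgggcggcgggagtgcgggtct
Ccnb1: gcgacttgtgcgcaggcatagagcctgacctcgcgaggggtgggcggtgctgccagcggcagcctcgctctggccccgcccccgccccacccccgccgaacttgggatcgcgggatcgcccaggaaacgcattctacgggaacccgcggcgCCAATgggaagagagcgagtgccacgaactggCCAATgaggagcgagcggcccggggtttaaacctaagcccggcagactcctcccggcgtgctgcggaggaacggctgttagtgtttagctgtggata

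**Figure D2:**
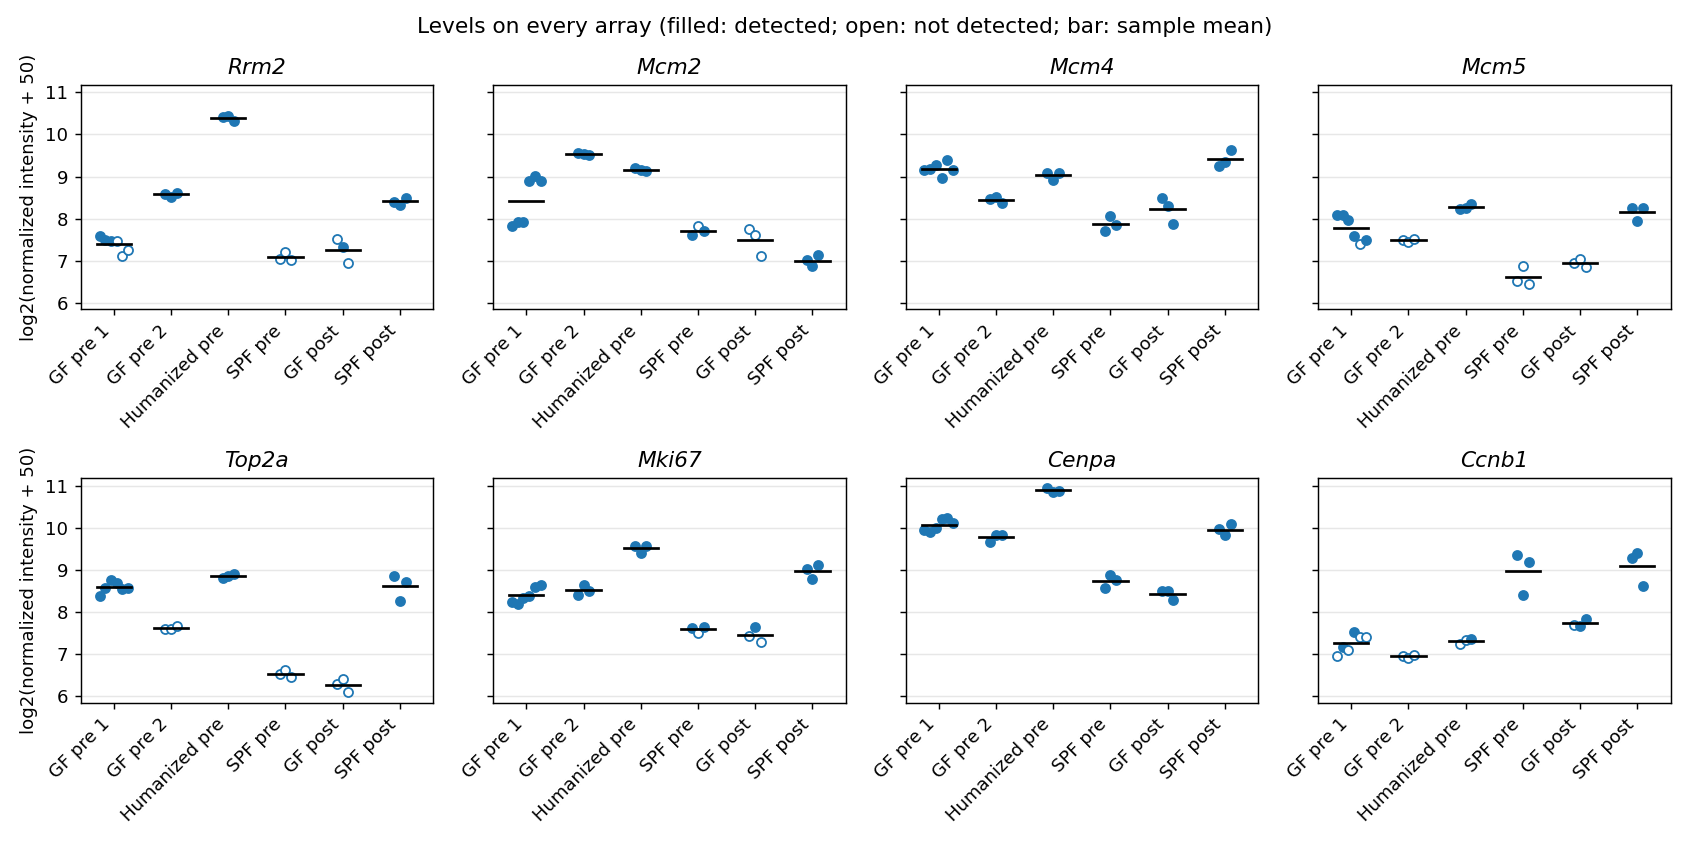
Level of 4 S phase members (top) and 4 mitotic members (bottom) on each array, as log2 of normalized intensity plus 50, with bars at the sample means, filled points for detected and open points for undetected values. Humanized ileum is highest for Rrm2, Mcm5, Top2a, Mki67 and Cenpa, while Ccnb1 is high in both SPF samples.

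Across the 25 tested members the humanized sample was the highest for 13 (52.0%; 13.7% of all genes tested), 5 of the S phase and 8 of the mitotic class. SPF preweaned ileum was the lowest for 9 (18.6% of all genes) and GF postweaned ileum for another 9 (14.9% of all genes). These 2 samples were the 2 lowest for 6 of 13 S phase members (Mcm3, Mcm4, Mcm5, Mcm7, Rrm1 and Rrm2) and 6 of 12 mitotic members (Mki67, Top2a, Ccna2, Bub1b, Cenpa and Cdca8), against 12.2% of all genes. SPF postweaned ileum was above both of them for 10 of 12 mitotic and 6 of 13 S phase members (32.5% of all genes). Orders of this kind were picked after the levels had been seen and are descriptions. Mcm3, Rrm1 and Bub1b, which are counted in them, were above background only in humanized and SPF postweaned ileum. They were tested only through samples that these orders place high, so they add no support to the orders. The lowest detected level was also lowest in SPF postweaned ileum. A range of 2-fold or more was found for 16 of 25 members (64.0%) and 69.4% of all genes, a similar share.

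**Figure D3:**
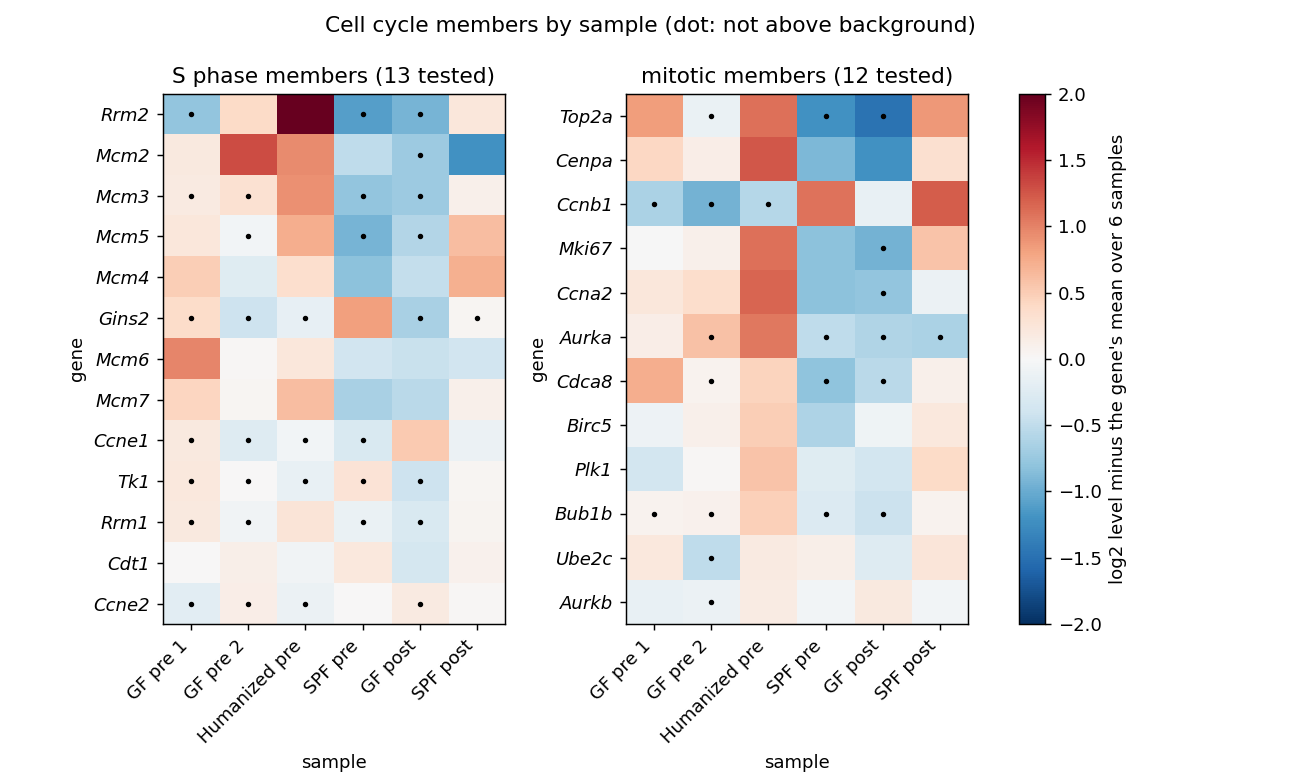
Log2 level of each tested S phase (left, 13) and mitotic (right, 12) member minus its mean over the 6 samples, by sample, with genes sorted by range, colours capped at 2 and a dot where the gene was not above background. Most rows with a wide range are blue in SPF preweaned and GF postweaned ileum and red in humanized ileum, whereas Ccnb1 and Gins2 are red in SPF preweaned ileum.

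SPF and GF ileum after weaning, 1 sample each, compared the weaned gut with and without microbes. Of the 12 mitotic members 4 were higher in SPF ileum by 2-fold or more (9.02% of all genes tested) and 0 were 2-fold or more lower (6.37% of all genes). They were Top2a (at least 2.12-fold, as no GF postweaned array detected it), Cenpa (2.87-fold, log2 difference 1.52 ± 0.48 SE), Mki67 (2.87-fold, 1.52 ± 0.46) and Ccnb1 (2.57-fold, 1.36 ± 0.49). Of the 13 S phase members 3 were 2-fold or more higher and 0 lower: Mcm4 (2.27-fold), Rrm2 (2.22-fold) and Mcm5 (at least 1.54-fold). Mki67 and Rrm2 were each detected on 1 of 3 GF postweaned arrays, so their folds rest on a GF level not above background. The median difference was 0.66 over the mitotic members, 0.45 over the S phase members and -0.02 over all genes. The S phase median is the value of Tk1, which was tested only through SPF postweaned ileum. No GF postweaned array detected Tk1, so a higher SPF value was to be found. Mcm2 (-0.49) and Ccne1 (-0.64) lay lower in SPF ileum. No GF postweaned array detected Mcm2, while all 3 SPF postweaned arrays did, so the direction for Mcm2 is uncertain. With undetected values set to the lowest detected value the S phase median turned to -0.26. Of the 7 members at 2-fold, 6 (all but Rrm2) differed, also at their bound, by more than the GF preweaned samples 1 and 2 did for the same gene. Over all genes, 1609 of the 1877 at 2-fold exceeded that pair, counted without bounds, a similar share. At their bounds 2 S phase and 4 mitotic members remained at 2-fold. limma called 0 of the 12196 genes (521 at an unadjusted p under 0.05), as it did with trend and robust options here and in every comparison that follows, and 3 of the 25 members had an unadjusted p under 0.05 with a smallest adjusted p of 0.9998 in limma. T and NK cell markers moved alongside: 17 of 17 tested markers were higher in SPF ileum (16 of them by 2-fold or more), with a summed intensity of 84336 against 6601. In SPF ileum 17 were above background and in GF ileum 9, but the lowest detected level per array was 6.68 to 6.88 in the former and 7.15 to 8.08 in the latter. B cell (8 of 9) and smooth muscle markers (6 of 9) were mostly higher too, against 5968 of all 12196 genes. Crypt stem (8 of 11, median -0.05), epithelial (8 of 12, -0.12) and fibroblast markers (5 of 8, -0.26) were more often lower, against 6228 of all genes. The summed intensity of the fibroblast markers went the other way, with 2063 in SPF and 1867 in GF ileum. The part of these cells in the difference of the members was not tested.

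Weaning in SPF mice, again 1 sample on each side, gave 3 mitotic members at 2-fold or more higher after weaning (10.5% of all genes) and 0 lower (8.64%). Top2a was at least 2.33-fold, Mki67 2.61-fold (1.38 ± 0.46 SE) and Cenpa 2.32-fold (1.22 ± 0.48) higher in the postweaned sample. The S phase members at this size were Mcm5 (at least 1.69-fold), Mcm4 (2.89-fold, 1.53 ± 0.61) and Rrm2 (at least 2.03-fold), with 0 lower. Taken at these bounds, 5 of the 6 exceeded the difference of the GF preweaned pair, Rrm2 not, and 2 S phase and 3 mitotic members remained at 2-fold. Counted without bounds, 1858 of the 2339 genes at 2-fold exceeded that pair. Median differences were 0.66 (mitotic), 0.19 (S phase) and -0.04 (all genes). The S phase median turned to -0.13 with undetected values at the lowest detected value and to -0.09 in the authors' value table, where the median of all genes was -0.42. Ccnb1, high in both samples, differed by 0.11, and Mcm2 (-0.71) lay lower after weaning. Gins2 (-0.78) did too, but it was tested only through SPF preweaned ileum and no SPF postweaned array detected it, so a lower value was to be found. In limma 0 of 12196 genes were called (627 at an unadjusted p under 0.05), 3 of 25 members had an unadjusted p under 0.05, and their smallest adjusted p was 0.9435. The 17 T and NK markers were all higher after weaning, with a summed intensity of 84336 against 1345, and the part of these cells was not tested.

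Humanized against GF ileum before weaning set 1 sample against 2. All 12 mitotic members were higher in the humanized sample, by 0.04 (Cdca8) to 1.05 (Mki67, 2.08-fold, ± 0.40 SE). Only Mki67 reached 2-fold (4.16% of all genes higher, 2.34% lower). The humanized sample was above both GF samples for 10 of these 12, all but Cdca8 and Ube2c, and for 5 of 13 S phase members (24.1% of all genes). Bub1b, Mcm3 and Rrm1, which are counted here, were tested only through humanized and SPF postweaned ileum. Among the S phase members Rrm2 was 5.30-fold higher (2.40 ± 0.68), 7.97-fold against GF preweaned 1 and 3.52-fold against GF preweaned 2. The other 12 differed by less than 2-fold, with a class median of 0.19 beside 0.60 for the mitotic class and -0.02 for all genes. The S phase median turned to -0.13 with undetected values at the lowest detected value. Against GF preweaned 1 alone Rrm2 and Mki67 were higher by 2-fold or more (10.2% of all genes higher, 8.16% lower). GF preweaned 2 alone shares the array numbering of the humanized sample. Against it Rrm2, Cenpa (2.16-fold) and Top2a (at least 1.86-fold) were the members at 2-fold (1.48% of all genes higher, 0.418% lower), all 12 mitotic members were higher, and the medians were 0.51 (mitotic) and 0.25 (S phase). limma called 0 of 12196 genes (70 at an unadjusted p under 0.05), and Rrm2, the 1 member with an unadjusted p under 0.05, had an adjusted p of 0.9999. Fibroblast and smooth muscle markers moved the same way: 8 of 8 and 9 of 9 tested markers were higher in the humanized sample, with summed intensities of 10884 against 4213 and 5586 for fibroblasts and 15171 against 4901 and 7599 for smooth muscle. Their part in the result was not tested.

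The remaining comparisons cross the sets of samples between which 391 genes lay apart, so set and group cannot be told apart in them. Before weaning, SPF ileum (n = 1) was lower than GF ileum (n = 2) for 9 of 13 S phase and 9 of 12 mitotic members, against 6290 of all 12196 genes. Of these members Mcm3, Rrm1, Ccne1 and Bub1b were not above background in any of the samples compared. By 2-fold or more 3 S phase and 4 mitotic members were lower (11.1% of all genes), and 1 mitotic and 0 S phase members were higher (11.5%). Mcm2 was 2.38-fold (-1.25 ± 0.66 SE), Cenpa 2.27-fold (-1.18 ± 0.42) and Ccna2 2.16-fold (-1.11 ± 0.40) lower in SPF ileum. Top2a, Cdca8, Mcm3 and Mcm5 were not detected on any SPF preweaned array and were at least 1.63-fold, 1.16-fold, 1.002-fold and 1.18-fold lower. The member that was higher was Ccnb1, 3.68-fold (1.88 ± 0.42), against a GF level that 2 of 6 arrays of sample 1 and 0 of 3 of sample 2 detected. At such bounds 1 S phase and 2 mitotic members remained 2-fold lower. Class medians were -0.87 (S phase) and -0.74 (mitotic) beside -0.03 for all genes, and the S phase median was -0.40 against GF preweaned 2 alone and -0.50 against GF preweaned 1 alone. In the authors' value table, where the median of all genes was 0.77, both medians turned, to 0.065 and 0.22. Of the 8 members at 2-fold, 4 exceeded the difference within the GF pair at their bound, and Top2a, Cdca8, Mcm3 and Mcm5 did not. Counted without bounds, all 8 did, as did 2392 of all 2761 genes at 2-fold. In limma 0 genes of 12196 were called (1182 at an unadjusted p under 0.05), and the smallest adjusted p among the members was 0.4905, with 1 member, Ccnb1, at an unadjusted p under 0.05.

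Crypt stem cell and fibroblast markers were also lower in SPF than in GF preweaned ileum. Of 11 tested crypt stem markers 9 were lower, 6 of them by 2-fold or more, and 2 were higher, Axin2 and, by 2-fold or more, Prom1 (9.35 against 8.20 and 8.23). In the SPF sample 5 were above background and in the GF samples 9 and 8, with a summed intensity of 2021 against 5547 and 4148. Olfm4 lay at 6.03 in SPF preweaned ileum and 10.76 and 8.11 in the GF samples, and Ascl2, the transcription factor of crypt stem cells, at 5.64 against 8.32 and 7.59, neither being detected on any SPF preweaned array. Of 8 tested fibroblast markers 7 were lower, and their summed intensity was 845.5 against 4213 and 5586. What part these cells had in the levels of the cell cycle members was not tested.

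Weaning in GF mice (1 postweaned against 2 preweaned samples) went with lower levels of 11 of 13 S phase and 10 of 12 mitotic members, against 6129 of all 12196 genes. Of these members Mcm3, Rrm1, Gins2, Tk1 and Bub1b were not above background in any GF sample, so their direction lies between background levels. By 2-fold or more 1 S phase and 4 mitotic members were lower (12.7% of all genes), and 0 were higher (11.6%). These were Mcm2 (at least 2.44-fold), Top2a (at least 1.49-fold), Cenpa (2.81-fold, -1.49 ± 0.42 SE), Ccna2 (2.10-fold, -1.07 ± 0.40) and Mki67 (2.003-fold, -1.002 ± 0.40). Ccna2 and Mki67 were each detected on 1 of 3 GF postweaned arrays, so their folds rest on a postweaned level not above background. Ccnb1 was the exception among the wide-ranging mitotic members, with a difference of 0.63 in the other direction. Medians were -0.62 (S phase), -0.71 (mitotic) and -0.0044 (all genes), and GF postweaned ileum was below both GF preweaned samples for 11 of 13 and 7 of 12 members (37.8% of all genes). At their bounds 4 of the 5 exceeded the difference within the GF pair and were 2-fold or more lower, Top2a not. Counted without bounds, 2307 of all 2966 genes at 2-fold exceeded that pair. limma called 0 of 12196 genes (927 at an unadjusted p under 0.05), and 2 members, Cenpa and Top2a, had an unadjusted p under 0.05, each with an adjusted p of 0.5983. Crypt stem markers (8 of 11 lower, summed intensity 2851 against 5547 and 4148) and fibroblast markers (8 of 8 lower, 1867 against 4213 and 5586) were lower as well. Of the crypt stem markers 4 were lower and 1 higher by 2-fold or more. All 12 epithelial markers were higher, and the part of these cells was not tested.

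Humanized and SPF ileum before weaning were compared with 1 sample each. Of the 12 mitotic members 7 were 2-fold or more higher in the humanized sample (15.3% of all genes) and 1, Ccnb1, was lower (14.6%). Of the 13 S phase members 6 were higher and 0 lower. Rrm2 was at least 7.98-fold higher, Cenpa 4.44-fold (2.15 ± 0.48 SE), Ccna2 3.96-fold (1.99 ± 0.46), Mki67 3.78-fold (1.92 ± 0.46) and Top2a at least 2.74-fold. Mcm2 (2.72-fold), Mcm7 (2.40-fold), Mcm4 (2.23-fold) and Birc5 (2.16-fold) followed, together with Aurka (at least 1.96-fold), Mcm5 (at least 1.84-fold), Mcm3 (at least 1.61-fold) and Cdca8 (at least 1.20-fold), which no SPF preweaned array detected. Counted at such bounds, 4 S phase and 5 mitotic members remained at 2-fold. Ccnb1 was 3.18-fold lower (-1.67 ± 0.49) in the humanized sample, where 1 of 3 arrays detected it. Medians were 1.18 (mitotic), 0.60 (S phase) and 0.01 (all genes). In the authors' value table, where the median of all genes was -0.66, the S phase median turned to -0.15. In limma 9 of 25 members had an unadjusted p under 0.05, the smallest adjusted p among them was 0.4842, and 0 of 12196 genes were called (1241 at an unadjusted p under 0.05). Fibroblast markers (8 of 8 higher, summed intensity 10884 against 845.5) and crypt stem markers (9 of 11 higher, 6442 against 2021) lay higher too. So did T and NK markers (13 of 17 higher, 7 by 2-fold or more, 6898 against 1345) and smooth muscle markers (7 of 9 higher, 5 by 2-fold or more, 15171 against 5856). Lower by 2-fold or more in the humanized sample were 2 T and NK markers, Cd3e (8.19 against 9.38) and Cd2 (6.66 against 7.77), and 1 smooth muscle marker, Synm. The part of these cells was not tested.

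**Figure D4:**
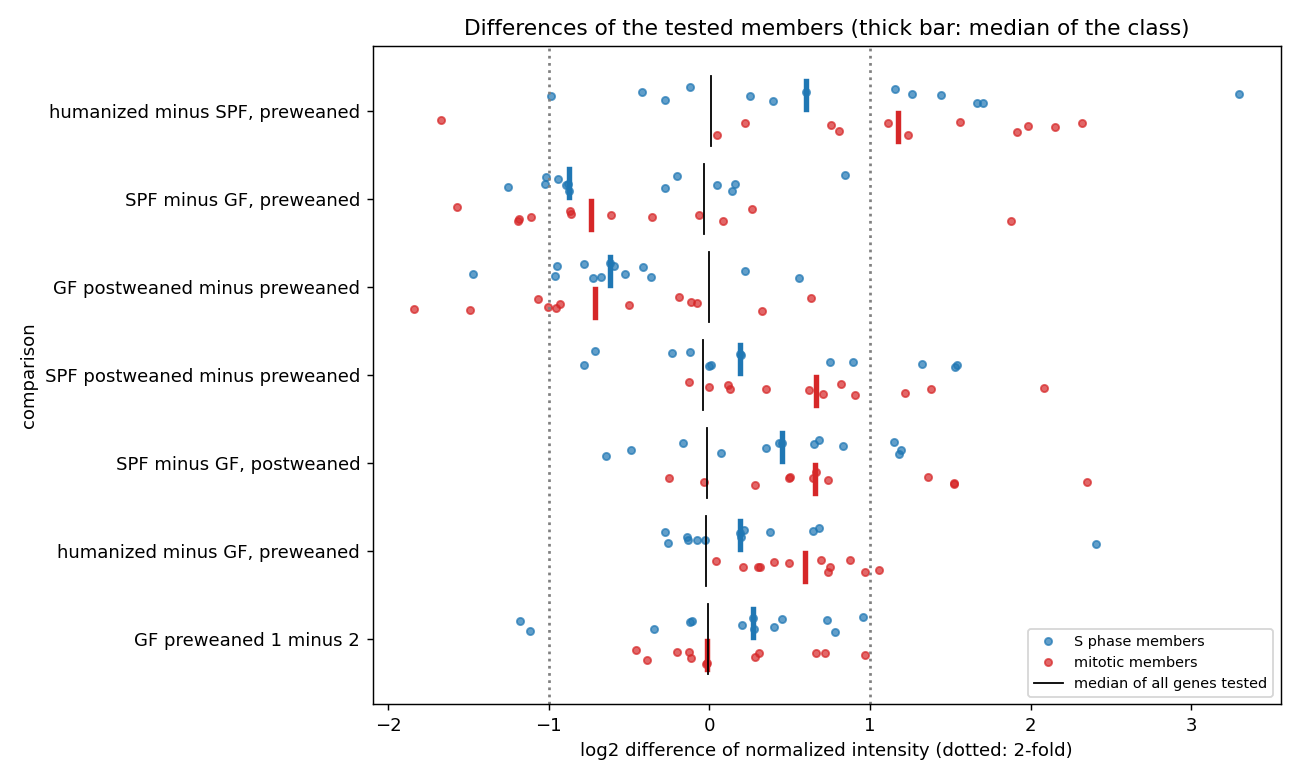
Log2 difference of each tested S phase (blue) and mitotic (red) member in 6 comparisons and within the GF preweaned pair, with thick bars at the class medians, black lines at the median of all genes and dotted lines at 2-fold. The mitotic median is 1.18 for humanized minus SPF and -0.02 within the pair, and the lone red point at 1.88 in SPF minus GF before weaning is Ccnb1.

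Whether weaning differed between SPF and GF ileum was asked with the interaction, the weaning difference of SPF minus that of GF. It was 2-fold or more positive for 5 S phase and 5 mitotic members (17.5% of all genes) and as much negative for 0 (16.9%). The medians were 0.76, 0.87 and -0.03 for the S phase members, the mitotic members and all genes. Top2a (3.92 ± 0.92 SE), Cenpa (2.71 ± 0.64), Mki67 (2.38 ± 0.61) and Mcm5 (2.22 ± 0.64) had the largest fitted interactions, each higher after weaning in SPF and lower after weaning in GF ileum. For Top2a and Mcm5 no array of GF preweaned 2, SPF preweaned or GF postweaned ileum detected the transcript, so their values and their rank rest on levels below background. Mki67 was not above background in GF postweaned ileum, where 1 of 3 arrays detected it. Ccnb1 (-0.52) was the lowest of the 25. limma's interaction test called 0 of 12196 genes (771 at an unadjusted p under 0.05) and gave 5 members an unadjusted p under 0.05 with an adjusted p of 0.7608, the smallest of any gene. The GF weaning difference within it crosses the sets between which 391 genes lay apart. Among the markers the interaction was 2-fold or more positive for 15 of 17 T and NK (median 3.61), 6 of 8 fibroblast (median 1.73) and 5 of 11 crypt stem markers (median 0.82). For 1 crypt stem marker it was as much negative. The part of these cells was not tested.

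The GF preweaned samples, the only samples to share a group, differed by 2-fold or more for 2 S phase members, Rrm2 (2.27-fold) and Mcm2 (2.17-fold), both higher in sample 2 (9.92% of all genes), and for 0 members in the other direction (9.28%). No mitotic member reached 2-fold (0 of 12), and the class medians of sample 1 minus sample 2 were 0.27 (S phase) and -0.02 (mitotic). Top2a, at least 1.54-fold higher in sample 1, Mcm6 (0.96) and Cdca8 (0.66) lay higher there. Nothing in the labels says that these samples came from separate litters, so the spread between them may be technical. The p-values given set group differences against this spread alone, moderated by limma over all genes.

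Other genes of replication and mitosis showed how far the order of the members extended. Of 52 further replication genes 44 were tested, and of 64 further mitotic genes 41. In SPF minus GF ileum before weaning 34 of 44 and 30 of 41 were lower (medians -0.65 and -0.57), and in GF weaning 36 of 44 and 34 of 41 (medians -0.50 and -0.58). Of all 12196 genes, 6290 and 6129 were lower in these comparisons. In humanized minus SPF ileum 17 replication and 19 mitotic genes were 2-fold or more higher (15.3% of all genes) and 0 and 2 as much lower (14.6%), with medians of 0.76 and 0.88, and after weaning SPF minus GF gave medians of 0.20 and 0.43. Humanized ileum was above both GF preweaned samples for 29 of 41 further mitotic genes and 14 of 44 further replication genes, where 24.1% of all genes were.

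Dck, deoxycytidine kinase of the salvage pathway, lay at 12.89 and 12.57 in GF preweaned 1 and 2, 12.62 in the humanized, 10.46 in the SPF preweaned, 10.44 in the GF postweaned and 10.11 in the SPF postweaned sample, with no overlap between the first 3 and the others. Dtymk, thymidylate kinase, was 10.02 and 8.40 in the GF preweaned pair, 9.33 in the humanized, 7.75 in the SPF preweaned, 7.19 in the GF postweaned and 8.35 in the SPF postweaned sample. Fen1, the flap nuclease of lagging strand synthesis, was -1.49 in GF weaning. Uhrf1, which carries DNA methylation through replication, was 1.86 and Kif23, a kinesin of the central spindle, 1.93 higher in humanized than in SPF preweaned ileum, and Knl1, a kinetochore scaffold, at least 1.47-fold. Fzr1, the activator of the anaphase-promoting complex in G1, had an interaction of 2.67 and Tacc3, of spindle microtubules, of 2.13. Against this direction, Ckap2l, a spindle protein, was -1.70 in SPF minus GF ileum after weaning, and Pttg1, securin, was -1.48 in humanized minus SPF ileum.

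Regulators upstream of the cycle lay the same way as the members in GF weaning, where 14 of 18 tested transcription factors and G1 genes were lower (median -0.36), but not in the other comparisons of SPF and GF ileum. Of these 18 genes, 9 were higher and 9 lower in SPF than in GF ileum after weaning (median -0.03), and in SPF minus GF ileum before weaning the median was 0.01. Ccnd1, cyclin D1 of G1, was 9.12 and 8.94 in the GF preweaned samples, 9.80 in the humanized, 8.19 in the SPF preweaned, 7.66 in the GF postweaned and 9.04 in the SPF postweaned sample, with the same highest and 2 lowest samples as Mki67. E2f8, a repressor of E2F targets, was instead highest in GF preweaned 1 (9.57) and SPF preweaned ileum (9.10) and undetected in GF preweaned 2 and GF postweaned ileum. Of 18 tested inhibitors and pocket proteins 10 were higher and 8 lower in both GF weaning and SPF minus GF ileum before weaning. Rbl2, the pocket protein of DREAM, was not detected in GF preweaned or humanized ileum (5.65 to 5.68) and lay at 7.96, 8.72 and 8.04 in SPF preweaned, GF postweaned and SPF postweaned ileum, exactly as the 2 sets of samples divide. Tob1, an antiproliferative factor, had an interaction of 4.19, and Cdkn1c, the inhibitor p57, was 13.97 in GF preweaned 1 and 10.62 in GF preweaned 2.

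**Figure D5:**
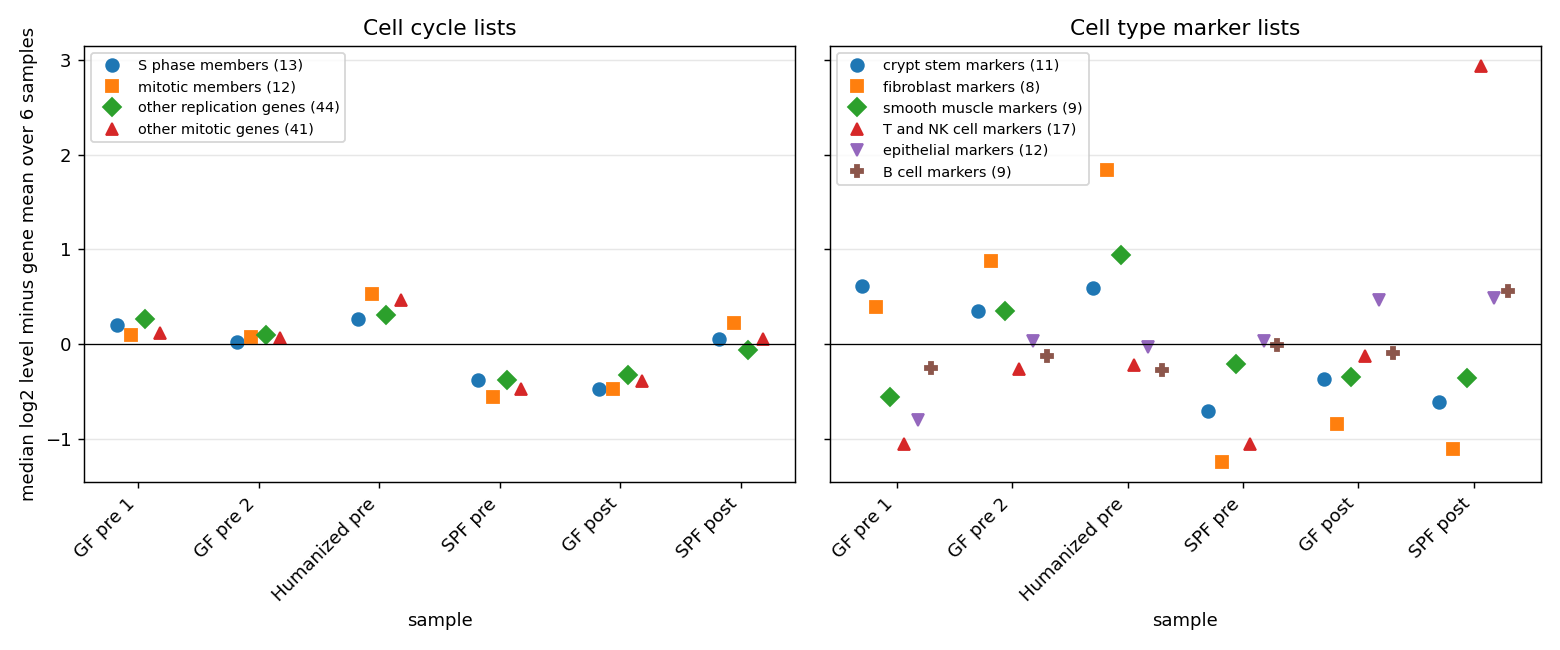
Median over each list of the log2 level minus the gene's mean over the 6 samples, by sample, for cell cycle lists (left) and marker lists (right), with the number of tested genes in brackets. The mitotic members have medians of 0.53 in humanized, -0.56 in SPF preweaned and -0.48 in GF postweaned ileum, and in the same samples the fibroblast markers have 1.84, -1.25 and -0.85.

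The marker lists moved with the members in part. SPF preweaned and GF postweaned ileum were low for crypt stem markers (medians of the deviation from the gene mean -0.71 and -0.38), fibroblast markers (-1.25 and -0.85) and mitotic members (-0.56 and -0.48) alike. SPF postweaned ileum was low for crypt stem (-0.62) and fibroblast markers (-1.11) but not for the mitotic members (0.23), and it held the highest T and NK markers (2.94). Lgr5, the receptor that marks crypt stem cells, was 8.89 and 8.05 in the GF preweaned samples, 8.03 in the humanized, 6.92 in the SPF preweaned, 7.11 in the GF postweaned and 6.76 in the SPF postweaned sample. Lgr5 did not overlap between the GF preweaned and humanized samples and the other 3, unlike Mki67, for which SPF postweaned ileum was above both GF preweaned samples. The other tested crypt stem markers were divided like Lgr5, save Prom1, Axin2 and Rnf43. This division is that of the sets of samples named above, between which 4466 of all 12196 genes did not overlap. Sox9 and Tnfrsf19 were above background only in the humanized sample, and Ascl2 only there and in GF preweaned 1. Prom1 (8.20, 8.23 and 8.50 against 9.35, 9.28 and 9.25) and Axin2 were divided in the opposite direction, and Rnf43 overlapped. B cell markers had medians between -0.27 and 0.56, with members that went apart: Fcer2a was 3.14-fold and Cd79a 2.44-fold higher in SPF than in GF preweaned ileum, and Cd22 was 3.09-fold higher in GF postweaned than in GF preweaned ileum. All 9 tested were above background in SPF postweaned ileum and 3 in GF preweaned 2.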

How the data were processed

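Ileal RNA of 6 samples in 5 groups, 2.5 µg each, was amplified, labelled with Cy5 and read on 21 Phalanx Mouse OneArray slides in a single colour, per the labels. The authors deposited raw intensity per probe and array as whole numbers, some below 0, so a background had been subtracted; the scanner software was not stated in the labels. A detection p-value and a flag per spot were deposited beside it, per the file headers. The authors' value table, a further deposited intensity, ranks probes like the mean raw intensity of each sample. Its median differs between samples, from 33.33 in GF preweaned 2 to 97.94 in SPF preweaned ileum. Whether it had been scaled between samples was not tested.

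Probes were named by the symbols in the files, updated with RefSeq names (GRCm38.p6). Arrays were quantile-normalized, floored at 0, offset by 50 and averaged as log2 within column sets and samples. A probe was above background where the detection p-value was under 0.05 on most arrays, and tested if so in 1 or more samples; the brightest tested probe stood for its gene. For a probe that went undetected on every array of the dimmer group, the fold is "at least", against the higher of its own value and the lowest detected value of each array. The 6 samples entered 1 model of 5 group means in limma (version 3.58.1, R 4.3.3; 2-sided, Benjamini-Hochberg adjusted over 12196 genes, 1 residual degree of freedom), and the script was tested on simulated data. Lone samples are thereby assumed to vary like the germ-free pair. The number of arrays limits precision.

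Members and lists were chosen with earlier results of these data known, so lists are described by counts and medians. Values in every sample are given for members with a range of 2-fold or more; of further lists, up to 3 genes per direction and comparison were eligible. Alternatives were 75th percentile scaling, the authors' values, an offset of 16, other probe filters, each column set alone, undetected values at the lowest detected value, limma with trend and robust options, each germ-free replicate left out and, added after seeing the data, the mitotic class without Ccnb1.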

Additional observations from a re-analysis of the deposited data

Results flagged for a closer look

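Weaning went with opposite differences in SPF and germ-free ileum for 3 mitotic members, and the difference between these was large in limma's interaction test before adjustment. For Top2a, the chromosome untangling topoisomerase, the postweaned minus preweaned difference was 2.08 in SPF and -1.84 in germ-free ileum, an interaction of 3.92 (unadjusted p = 0.01865 in limma, adjusted p 0.7608). No SPF preweaned or GF postweaned array detected Top2a, so this value rests on levels below background on both sides. Mki67, given below, was detected on 1 of 3 GF postweaned arrays and so was not above background there. Its second probe was detected on no SPF preweaned or GF postweaned array. For Cenpa, the centromeric histone and above background in all samples, the differences were 1.22 and -1.49, an interaction of 2.71 (unadjusted p = 0.01877 in limma, adjusted p 0.7608). For Mki67 they were 1.38 and -1.002, an interaction of 2.38 (unadjusted p = 0.02367 in limma, adjusted p 0.7608). None of the 3 passed the adjustment (0 of 12196 genes did), 3 of the 4 groups held 1 sample, and the germ-free weaning difference crosses the sets of samples between which 391 genes lay apart.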

How the results depend on the processing

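No paired analysis was possible because only 1 group holds more than 1 sample, so that groups share fewer than 2 replicate numbers. The 14 class medians were recomputed 161 times; 154 kept their direction, 7 turned, and 126 moved by less than the spread of the germ-free pair. limma called 0 genes under every scaling, filter, offset, column set and the trend and robust options; with undetected values set to the lowest detected value it called 23, 116, 12, 71, 144, 119 and 30 (SPF minus GF postweaned, SPF weaning, humanized minus GF, SPF minus GF preweaned, GF weaning, humanized minus SPF, interaction), where equal floors shrink the spread by construction. Under that setting the S phase medians were -0.26, -0.13, -0.13 and -0.30 in the first 4 comparisons and 0.29 for the interaction, and the mitotic medians 0.37, 0.34, -0.44, -0.24, 0.86 and 0.48 (all but humanized minus GF). The authors' table has unequal sample medians. Its median of all genes shifts by 0.77 in SPF minus GF preweaned, -0.66 in humanized minus SPF and 0.46 in SPF minus GF postweaned. The shift is -0.42 in SPF weaning and -0.35 in the interaction. In that table the S phase medians were 0.065 (-0.70 relative to the shift), -0.15 (0.51), 0.86 (0.39), -0.09 (0.32) and 0.36 (0.71) in this order, and the mitotic medians 0.22 (-0.55), 0.52 (1.18), 1.18 (0.71), 0.31 (0.73) and 0.54 (0.89). With no filter on dim probes the mitotic median was 0.44 in SPF weaning, 0.36 in humanized minus GF, -0.50 in GF weaning and 0.81 in humanized minus SPF, and the S phase median -0.28 in SPF minus GF preweaned. An offset of 16 gave mitotic medians of -0.95 in GF weaning, 1.48 in humanized minus SPF and 1.15 in the interaction. Among genes above background in all samples, which leave 3 mitotic and 4 S phase members, the mitotic median of GF weaning was -0.19 and the S phase interaction 1.24. Averaging the probes of a gene gave a mitotic interaction of 1.32, and leaving out Ccnb1 a mitotic median of -0.93 in GF weaning. Leaving out a germ-free preweaned replicate gave S phase medians of -0.50 to -0.40 in SPF minus GF preweaned and of 0.47 to 0.69 in the interaction; with no residual degree of freedom left, no count of called genes was made. Apart from the construction named, the cause of these shifts was not tested. Only 7 of the 25 members were above background in all samples, so folds of the others are bounded by detection.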
